A study of Mus musculus with 4 samples.

Results

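The genes described here carry out antigen presentation on MHC class II, and their RNA was measured in testis of mice mutant for Lrrc8a and of wild-type mice. The 7 members are the invariant chain gene Cd74, the class II chain genes H2-Aa, H2-Ab1 and H2-Eb1, the genes H2-DMa and H2-DMb1 of the peptide exchange factor H2-DM, and Ciita, the class II transactivator. All 7 were found by symbol among the 24420 symbols of the authors' table. They are known members of the pathway, but the pathway was chosen by the measured fold change of Cd74 in the same comparison. The differences between genotypes of the members are therefore given as a description, with no p-value printed, and are no independent evidence. The same holds for each statement below that a member was or was not called.

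Of the 4 libraries, 2 were labelled MUT, for mice mutant in Lrrc8a, and 2 WT. The LRRC8A protein is a channel subunit through which swollen cells release anions, and the series concerns deficient activity of that channel in male infertility. All mice were of the FVB strain, and RNA came from freshly isolated testis. The sources used here give neither the age of the mice nor the nature of the mutation, and do not say that each library was a different animal, so the spread between libraries may be technical. The labels name germ cells as the cell type, yet genes of Leydig cells and of Sertoli cells were present too: Cyp17a1 was at 657.1 and 680.2 CPM in MUT and 572.5 and 533 CPM in WT, and Sox9 at 15.56 and 14.78 CPM in MUT and 13.42 and 12.45 CPM in WT. The libraries are therefore described as whole testis. They held between 40426400 (MUT 2) and 68192776 (WT 1) reads assigned to genes. The values are CPM, read counts scaled to a library size that was not the plain total. The CPM sum to 992486.9 and 987722.6 in MUT, and to 1011463 and 1008533 in WT. In such bulk libraries, fewer cells of a type and less RNA per cell cannot be told apart. Lrrc8a itself was at 13.49 and 15.86 CPM in MUT, against 18.21 and 17.15 CPM in WT (a log2 difference of -0.26, SE 0.0998, limma adjusted p = 0.218; -0.15 without MUT 1), so its level is no check of the genotype labels.

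MHC class II molecules are heterodimers of an alpha and a beta chain that present peptides from endosomes to CD4+ T cells. The invariant chain occupies the peptide groove during assembly and guides the complex to endosomes, where cathepsins degrade it and H2-DM exchanges its last fragment for peptide. Transcription of these genes depends on CIITA, which has no DNA binding of its own and is held at the promoters by the RFX complex, NF-Y and CREB. Dendritic cells, B cells and some macrophages use the pathway, and in mouse testis it is known from macrophages that lie along the tubule wall, while most interstitial macrophages carry little of it.

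Promoter sequences are shown because that machinery binds there. RefSeq promoter windows on GRCm38.p6, from 250 bases before to 50 bases after a start, were at hand for 4 of the 7 members, H2-Aa, H2-Eb1, H2-DMa and H2-DMb1, all on chromosome 17. Each was searched on both strands for GATTGG, the core of the Y box that NF-Y binds, for AACNGATG, the end of the X1 box that the RFX complex binds, and for TGACGTCA, the cyclic AMP response element that CREB binds. These letters were chosen after the windows had been seen. No pair of these motifs shares bases in the windows shown. The 3 windows below are shown because they hold a Y box downstream of another motif; they are written 5′ to 3′ on the gene's strand, and capitals mark the matches (CCAATC is GATTGG on the other strand).
H2-Aa, chr17:34287774-34288073, minus strand: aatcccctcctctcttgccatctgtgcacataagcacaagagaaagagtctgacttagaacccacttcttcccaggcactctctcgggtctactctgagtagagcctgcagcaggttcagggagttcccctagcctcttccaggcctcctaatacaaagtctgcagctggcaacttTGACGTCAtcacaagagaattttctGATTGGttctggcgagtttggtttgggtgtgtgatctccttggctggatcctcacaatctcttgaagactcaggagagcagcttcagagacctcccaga
H2-Eb1, chr17:34305617-34305916, plus strand: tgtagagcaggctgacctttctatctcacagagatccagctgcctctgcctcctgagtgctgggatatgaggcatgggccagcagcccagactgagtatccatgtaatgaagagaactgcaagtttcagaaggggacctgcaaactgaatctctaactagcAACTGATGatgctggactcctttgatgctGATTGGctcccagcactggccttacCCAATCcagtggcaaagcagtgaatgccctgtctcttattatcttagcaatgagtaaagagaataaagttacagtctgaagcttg
H2-DMb1, chr17:34152941-34153240, plus strand: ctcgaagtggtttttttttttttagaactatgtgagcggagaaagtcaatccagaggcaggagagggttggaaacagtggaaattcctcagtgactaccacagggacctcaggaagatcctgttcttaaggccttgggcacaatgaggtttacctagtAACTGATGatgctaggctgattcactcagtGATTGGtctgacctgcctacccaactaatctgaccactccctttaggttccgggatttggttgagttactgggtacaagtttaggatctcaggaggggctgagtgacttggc
The X1 match lies 21 bases from the next Y box match in H2-Eb1 and 22 bases from it in H2-DMb1. In H2-Aa the cyclic AMP response element lies 17 bases before the Y box. Of the 32851 windows in the table, 16.1% hold GATTGG, 2.32% hold AACNGATG, 1.79% hold TGACGTCA and 0.335% hold both GATTGG and AACNGATG. H2-DMa has 2 windows, and both lie inside the annotated gene, which begins at 34119541. The window from 34122582 to 34122881 holds none of the 3 motifs. The window from 34125268 to 34125567 holds GATTGG alone. No window covers the annotated start, so the promoter there was not searched. Among the other class II genes of the region, H2-Eb2 and H2-DMb2 hold both motifs, 21 and 22 bases apart, and H2-Oa and H2-Ob hold GATTGG alone. A match describes these letters and shows no binding.

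Cd74, the invariant chain, was at 4.551 and 4.691 CPM in MUT, against 7.935 and 6.514 CPM in WT. Both MUT libraries lay below both WT libraries, and the MUT libraries differed from each other by less than the WT libraries did. These values rest on 222 and 192 reads in MUT and on 535 and 324 reads in WT, with exact 95% Poisson intervals of 3.97 to 5.19 and 4.05 to 5.4 CPM in MUT and 7.28 to 8.64 and 5.82 to 7.26 CPM in WT, which cover counting error only. Means were 4.621 ± 0.0988 CPM in MUT and 7.225 ± 1 CPM in WT (SD, n = 2 each), a log2 fold change of -0.59 (SE 0.126) on the log2(CPM + 0.5) scale. Cd74 was among the genes called lower in MUT at a limma adjusted p under 0.05. That call was lost without WT 1, where the log2 fold change was -0.45, and after a correction of each library for GC content and for transcript length, where it was -0.53. Cd74 lies outside the class II cluster, on chromosome 18 from 60803848 to 60812652 (GENCODE vM21, GRCm38); the microRNA locus Mir5107 inside it was at 0 in all libraries.

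Of the 7 members, 4 passed the filter of at least 1 CPM in at least 2 libraries: Cd74, H2-Aa, H2-Ab1 and H2-DMa, each of them above 1 CPM in every library. Of these 4, 1 was called lower, Cd74, and none higher, beside 0.267% of all 15364 tested genes called lower and 0.749% called in either direction. In all 4, both MUT libraries lay below both WT libraries, which was so for 22.6% of tested genes. Their median log2 fold change was -0.463, against -0.0016 over all tested genes. Since Cd74 chose the pathway, nothing is read from these counts. H2-Eb1, H2-DMb1 and Ciita stayed below 1 CPM in every library and were not tested. H2-Eb1 came closest to the filter, at 0.9226 CPM in MUT 1.

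**Figure D1:**
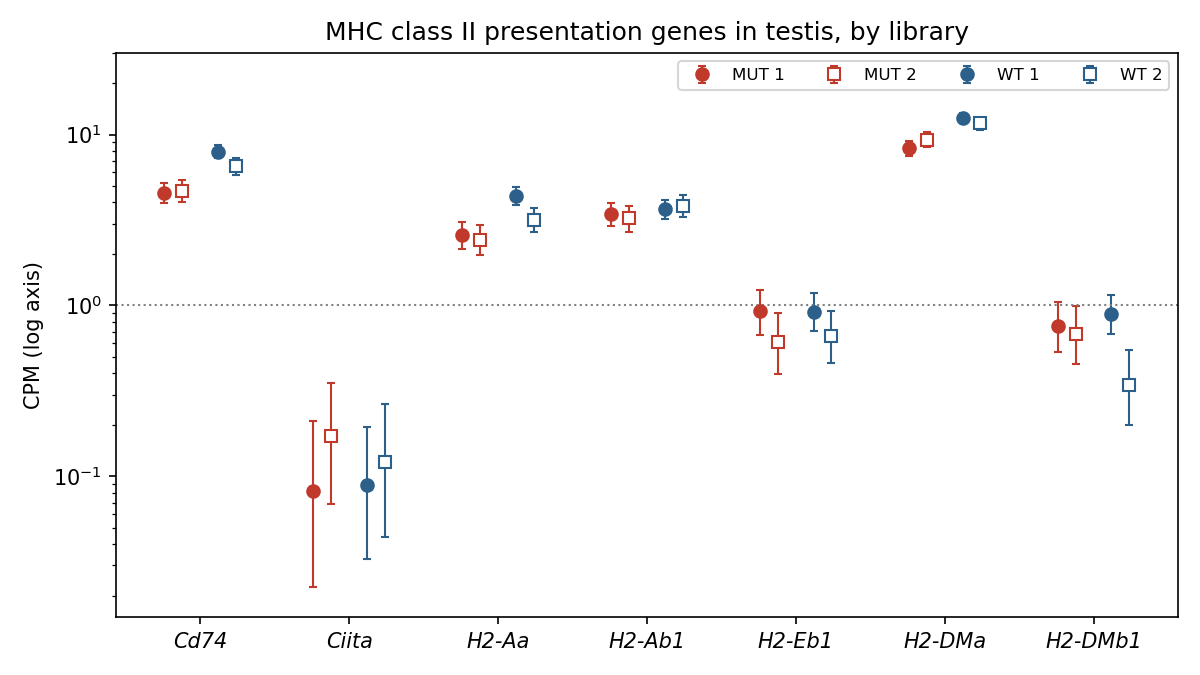
Levels of the 7 class II presentation genes in each library, in CPM on a log axis. Points are libraries (MUT red, WT blue; replicate 1 filled, replicate 2 open), bars are exact 95% Poisson intervals for counting error, and the dotted line marks the filter at 1 CPM; Cd74, H2-Aa, H2-Ab1 and H2-DMa lie above it, and Ciita is the lowest, at 0.08201 to 0.171 CPM.

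The chains of the I-A molecule differed between genotypes by unequal amounts. H2-Aa, the alpha chain gene, was at 2.583 and 2.419 CPM in MUT, against 4.376 and 3.177 CPM in WT. The WT libraries stood apart from each other, and WT 2 was closer to the MUT libraries than to WT 1. The log2 fold change was -0.50 (SE 0.154) with all libraries, -0.29 without WT 1 and -0.70 without WT 2, and H2-Aa was not called. H2-Ab1, the beta chain gene, was at 3.424 and 3.225 CPM in MUT, against 3.649 and 3.82 CPM in WT. The groups did not overlap, but the intervals for counting error of all 4 libraries did. Its log2 fold change was -0.15 (SE 0.134), and -0.084 after the correction for GC content and transcript length, and it was not called. H2-Aa reads made up 43% and 42.9% of the reads of both genes in the MUT libraries, against 54.5% in WT 1 and 45.4% in WT 2. The exact 95% binomial interval of WT 1, 50.2% to 58.8%, lay above those of the MUT libraries, 37.3% to 48.9% and 36.4% to 49.5%, while that of WT 2, 40.1% to 50.8%, overlapped both. H2-Aa lies on chromosome 17 from 34282744 to 34287823 on the minus strand, and H2-Ab1 from 34257689 to 34269419 on the plus strand.

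H2-Eb1, the beta chain gene of the I-E molecule, was at 0.9226 and 0.6108 CPM in MUT, against 0.9196 and 0.6635 CPM in WT. The genotypes overlapped, and in each of them the library with replicate number 1 was the higher. H2-Eb1 lies on chromosome 17 from 34305867 to 34316674, on the plus strand. These values stand for 45 and 25 reads in MUT and 62 and 33 reads in WT. H2-Ea-ps, annotated on GRCm38 as a polymorphic pseudogene of the I-E alpha chain, was at 0.08201 and 0.1466 CPM in MUT and 0.0445 and 0.1005 CPM in WT. Class II chains differ in sequence between mouse strains. The authors' notes name mm10, a C57BL/6J genome, for these FVB libraries, and how this affected the levels of the chains was not tested.

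The chain genes of H2-DM differed widely in level. H2-DMa, the alpha chain, had the highest CPM of the 7 members, at 8.324 and 9.309 CPM in MUT, against 12.5 and 11.56 CPM in WT. The groups did not overlap, and their means were 8.816 ± 0.697 CPM in MUT and 12.03 ± 0.667 CPM in WT (SD, n = 2 each). The log2 fold change of -0.43 (SE 0.106) was not called with all libraries, and was called without MUT 2, at -0.51. H2-DMb1, a beta chain gene, was at 0.7586 and 0.6841 CPM in MUT, against 0.8899 and 0.3418 CPM in WT. Both MUT libraries lay between the WT libraries. H2-DMb1 reads made up 8.35% and 6.85% of the reads of both genes in the MUT libraries, against 6.64% in WT 1 and 2.87% in WT 2. Its close paralog H2-DMb2 was at 0.5946 and 0.4887 CPM in MUT and 0.5043 and 0.6032 CPM in WT, and reads of the paralogs may have been split by the counting. H2-DMb1 lies on chromosome 17 from 34153072 to 34160230. The remaining class II genes of the region were barely detected, with 0 or 1 read of H2-Eb2, 0 to 3 reads of H2-Oa, a partner in the H2-DM inhibitor H2-O, and 7 to 11 reads of its other chain H2-Ob in each library. The annotated H2-DMa gene, from 34119541 to 34139101 on the plus strand of chromosome 17, shares 3094 bases with Brd2 on the minus strand. Brd2, a bromodomain gene, was far more abundant, at 474.9 and 481.5 CPM in MUT and 463.1 and 435.7 CPM in WT. Whether the counting used strand is not stated in the labels, so the level of H2-DMa is uncertain, and the part of Brd2 reads in it was not tested.

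Ciita was barely detected, at 0.08201 and 0.171 CPM in MUT, against 0.08899 and 0.1206 CPM in WT. This is 4 and 7 reads in MUT and 6 and 6 reads in WT, close to the floor of 3 reads, and the genotypes overlapped. A difference in Ciita was not detectable at this depth. Ciita lies on chromosome 16 from 10480059 to 10528418, and Dexi runs on the opposite strand through 25888 bases of it, at 7.34 and 7.77 CPM in MUT and 8.173 and 7.439 CPM in WT.

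Levels between genes were compared per kilobase of annotated exon, in CPM per kb. Means ran in the order Cd74 (2.75 in MUT, 4.3 in WT), H2-DMa (2.56 and 3.49), H2-Ab1 (1.29 and 1.45) and H2-Aa (0.659 and 0.994), and then H2-DMb1 (0.429 and 0.366), H2-Eb1 (0.394 and 0.407) and Ciita (0.0133 and 0.011). The values of Cd74 and H2-DMa overlapped over the 4 libraries, as did those of H2-DMb1 and H2-Eb1, whose order differs between the genotypes. The levels per kb of H2-Ab1 and H2-Aa did not overlap, at 1.26 to 1.49 and 0.637 to 1.15, nor did those of the remaining neighbours in this order. In CPM, H2-Ab1 (3.225 to 3.82) and H2-Aa (2.419 to 4.376) did overlap. Their separation per kb rests on exon lengths of 2568 and 3798 bases, which join the exons of all annotated transcripts. Ratios to Cd74 varied less for H2-Aa than for H2-Ab1: Cd74 had 1.76 and 1.94 times the CPM of H2-Aa in MUT and 1.81 and 2.05 times in WT, but 1.33 and 1.45 times the CPM of H2-Ab1 in MUT and 2.17 and 1.71 times in WT. The ratio of Cd74 to H2-Aa overlapped between genotypes, and that of Cd74 to H2-Ab1 did not. Cd74 chose the pathway, so nothing is read from these ratios.

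**Figure D2:**
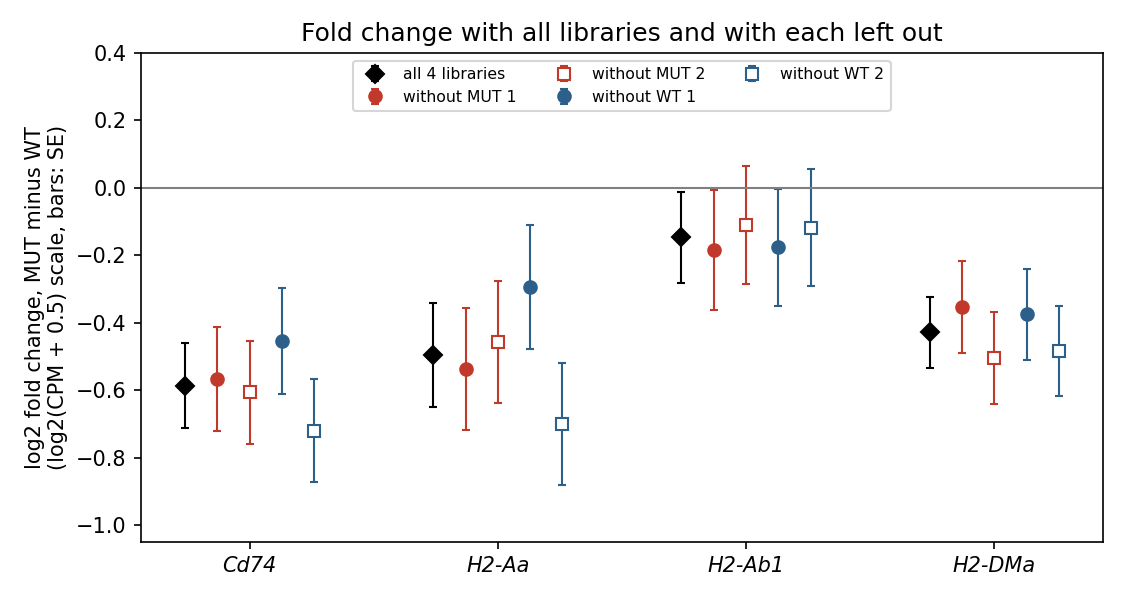
Log2 fold change (MUT minus WT, log2(CPM + 0.5) scale) of the 4 tested members, with all libraries (black) and with each library left out; bars are SE. All values lie below 0; H2-Aa runs from -0.70 without WT 2 to -0.29 without WT 1, and H2-Ab1 stays nearest to 0.

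The factors that act on class II promoters were detected in both genotypes. Of 10 listed, 9 were tested and none was called, beside 0.749% of all tested genes. On the log2 fold change scale 6 lay above 0 and 3 below, with a median of 0.08. None had both MUT libraries below both WT libraries, which was so for 22.6% of tested genes. Which cells of the testis these values came from was not tested. Rfx5, the DNA-binding subunit of the RFX complex, was at 22.9 and 20.99 CPM in MUT and 20.16 and 21.29 CPM in WT. Its partners Rfxap (14.62 and 14.9 CPM in MUT, 14.65 and 15.42 CPM in WT) and Rfxank (15.85 and 16.13 CPM in MUT, 17.53 and 15.68 CPM in WT) overlapped between genotypes in the same way. Among the NF-Y subunits, Nfya was at 34.77 and 34.28 CPM in MUT and 33.65 and 31.12 CPM in WT, Nfyb at 6.684 and 6.646 CPM in MUT and 6.304 and 6.172 CPM in WT, and Nfyc at 20.13 and 23.55 CPM in MUT and 21.91 and 21.87 CPM in WT. Creb1 was at 18.41 and 17.57 CPM in MUT and 16.51 and 15.9 CPM in WT. Nfya, Nfyb and Creb1 had their higher values in MUT, and Nfyc overlapped. The myeloid and lymphoid regulators Irf8, at 8.098 and 6.89 CPM in MUT and 6.408 and 7.741 CPM in WT, and Spi1, at 0.7791 and 1.075 CPM in MUT and 1.009 and 0.6836 CPM in WT, overlapped, and Irf4 was below the filter.

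Interferon gamma, which induces Ciita in many cells, has its receptor and signalling genes in the next list. None of the 8 tested was called; 6 lay above 0 and 2 below, with a median log2 fold change of 0.073. Jak1, a kinase of the receptor, was at 51.05 and 48.06 CPM in MUT and 43.81 and 44.63 CPM in WT (a log2 difference of 0.16, SE 0.0756, limma adjusted p = 0.328), and the receptor gene Ifngr1 at 10.15 and 10.21 CPM in MUT and 8.81 and 8.947 CPM in WT. Of 15 interferon gamma target genes only 3 were tested, and none was called, with 2 above 0 and 1 below. The guanylate-binding protein gene Gbp7 was at 2.378 and 2.614 CPM in MUT and 1.988 and 1.608 CPM in WT (0.39, SE 0.158, adjusted p = 0.255), and the GTPase gene Irgm1 at 1.353 and 1.148 CPM in MUT and 0.9789 and 0.8645 CPM in WT. Other genes of these lists lay the other way or overlapped: Jak2, a kinase of the receptor, was at 8.939 and 7.574 CPM in MUT and 8.588 and 9.429 CPM in WT, and Gbp5 at 1.579 and 1.515 CPM in MUT and 1.543 and 1.568 CPM in WT. Of the targets below the filter, Tgtp1 was at 0.123 and 0.0733 CPM in MUT and 0.2225 and 0.1407 CPM in WT, and Cxcl10 had no read in MUT and 5 and 1 reads in WT.

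The endosomal genes that prepare peptides and remove the invariant chain were all tested, 11 of 11, and none was called. Of these, 10 had a log2 fold change above 0, with a median of 0.078, and the exception was Ctss, the cathepsin that cleaves the invariant chain in antigen-presenting cells. Ctss was at 4.1 and 3.958 CPM in MUT and 4.999 and 3.961 CPM in WT, so that MUT 2 and WT 2 were alike. Ctsl, a cathepsin that Sertoli cells also make, was at 200.5 and 189.1 CPM in MUT and 175.6 and 160.4 CPM in WT (a log2 difference of 0.21, SE 0.0674, limma adjusted p = 0.144; 0.28 and called without WT 1, 0.15 without WT 2). Lgmn, an asparaginyl endopeptidase, was at 49.1 and 50.21 CPM in MUT and 44.91 and 38.8 CPM in WT (0.25, SE 0.0821, adjusted p = 0.166; 0.35 and called without WT 1, 0.14 without WT 2). Lamp1, of the lysosome membrane, was at 531.4 and 554.2 CPM in MUT and 527.3 and 525.8 CPM in WT. Of the genes for class II turnover, March8, a ubiquitin ligase, was tested and not called, at 21.03 and 21.57 CPM in MUT and 19.52 and 20.09 CPM in WT.

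Genes whose products bind the invariant chain at the cell surface were not called, none of 4 tested. Mif, a cytokine that binds CD74, was at 28.11 and 29.54 CPM in MUT and 31.13 and 31.85 CPM in WT, and its homolog Ddt at 111.8 and 111.1 CPM in MUT and 118.3 and 110.5 CPM in WT. Cxcr4, a chemokine receptor that partners with CD74, was at 5.905 and 4.496 CPM in MUT and 3.782 and 3.398 CPM in WT (a log2 difference of 0.47, SE 0.142, limma adjusted p = 0.127; 0.65 and called without MUT 2, 0.29 without MUT 1). Of 7 costimulation genes, 3 were tested and none was called: Cd274, the ligand PD-L1, was at 3.157 and 2.688 CPM in MUT and 2.18 and 1.809 CPM in WT (0.46, SE 0.155, adjusted p = 0.174), and Icosl at 2.522 and 3.005 CPM in MUT and 3.322 and 3.076 CPM in WT.

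MHC class I presentation, which serves CD8+ T cells and is active in most cells, gave 13 tested genes of 16, with none called, 7 above 0 and 6 below, and a median log2 fold change of 0.029. The class I chain gene H2-D1 was at 14.15 and 18.01 CPM in MUT and 15.34 and 11.44 CPM in WT, the peptide transporter gene Tap1 at 1.825 and 2.077 CPM in MUT and 1.513 and 1.427 CPM in WT, and the chaperone gene Calr at 542.9 and 496.2 CPM in MUT and 548.9 and 519.8 CPM in WT. Between the start of H2-Oa and the end of H2-Eb2 on chromosome 17 (34092340 to 34341412), the tested genes that are not members were Brd2, Tap1 and Tap2. All 3 had a log2 fold change above 0 and none was called. The 3 tested members in that stretch, H2-DMa, H2-Ab1 and H2-Aa, had values below 0. Since the members were chosen with results of this comparison known, nothing is read from the contrast with these neighbours.

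**Figure D3:**
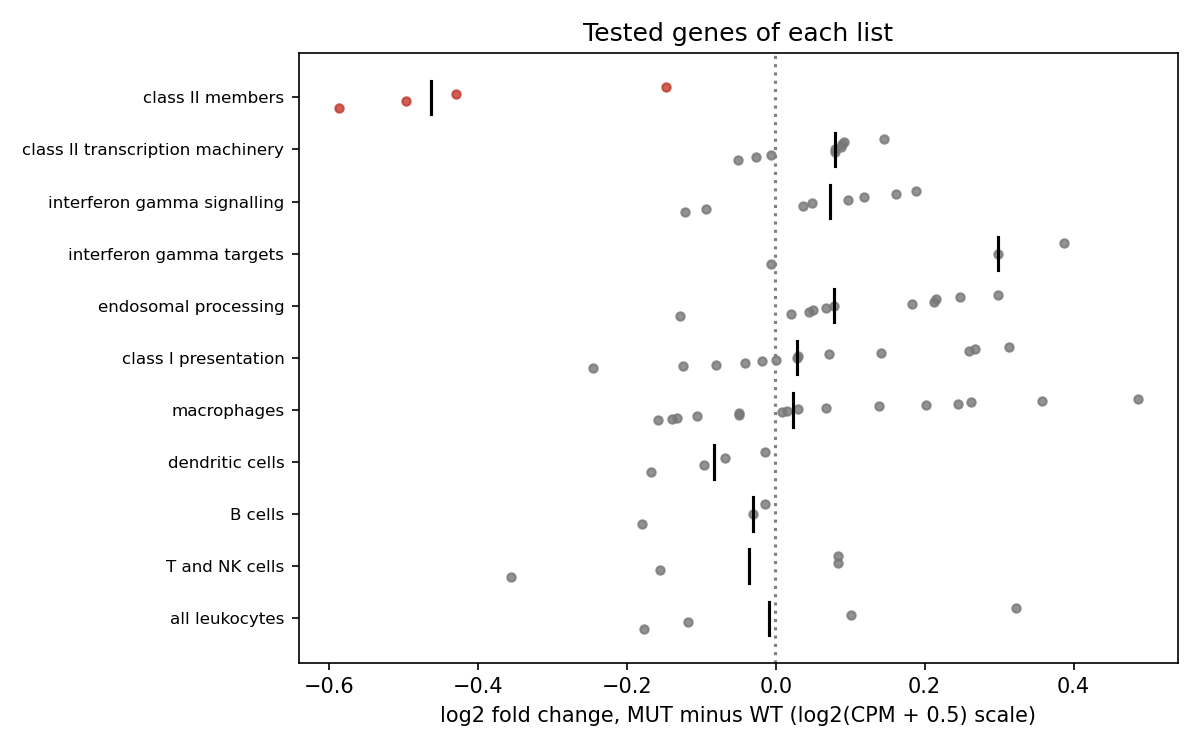
Log2 fold change (MUT minus WT, log2(CPM + 0.5) scale) of each tested gene in the class II members (red) and in lists of related genes and of immune cell markers (grey). Black ticks are list medians and the dotted line is the median of all tested genes, -0.0016. The member median is -0.463 and the other medians lie between -0.082 and 0.299. The highest, of the interferon gamma targets, rests on 3 tested genes. The fold change of Cd74 chose the pathway, so nothing is read from the place of the member median.

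Markers of the cells that could carry class II were set beside the members. Of 22 macrophage genes listed, 16 were tested and none was called, with a median log2 fold change of 0.023. Of these, 10 lay above 0 and 6 below, from Lyz2 at -0.158 to Folr2 at 0.486. Folr2 was at 1.64 and 2.394 CPM in MUT and 1.394 and 1.166 CPM in WT. Among the listed genes below the filter, Lyve1, Timd4 and Cd163 had their higher values in MUT. Fcgr1 had its higher values in WT, and Itgam overlapped. Lyz2 overlapped between genotypes, at 14.35 and 20.65 CPM in MUT and 24.24 and 15.3 CPM in WT. Their summed level, without Aif1, which at 310.5 and 296.6 CPM in MUT and 308.6 and 294.7 CPM in WT outweighed the other 20 genes found and was left out after its values were seen, was 143.4 and 154.7 CPM in MUT and 145.5 and 133.1 CPM in WT. With Aif1 it was 453.8 and 451.3 CPM in MUT and 454 and 427.8 CPM in WT. Csf1r, the receptor that defines macrophages, was at 17.53 and 19.03 CPM in MUT and 17.74 and 18.01 CPM in WT. Mertk, a receptor for engulfing dead cells, was at 6.561 and 6.401 CPM in MUT and 4.865 and 5.026 CPM in WT (a log2 difference of 0.36, SE 0.119, limma adjusted p = 0.165), and Mrc1, the mannose receptor, at 38.4 and 33.72 CPM in MUT and 28.6 and 31.32 CPM in WT (0.26, SE 0.0872, adjusted p = 0.168; 0.17 without MUT 1). Cd74 had 0.26 and 0.246 times the CPM of Csf1r in MUT, against 0.447 and 0.362 times in WT. Its CPM was 0.389 times that of the complement gene C1qa in both MUT libraries, against 0.673 and 0.558 times in WT. Both ratios of Cd74 were lower in MUT without overlap. The log2 fold changes of Csf1r and C1qa were 0.030 and 0.015, so these ratios restate the Cd74 difference that chose the pathway. H2-Ab1 had 0.195 and 0.169 times the CPM of Csf1r in MUT, against 0.206 and 0.212 times in WT, and the intervals for counting error of its 4 values overlapped. H2-Aa had 0.147 and 0.127 times the CPM of Csf1r in MUT, against 0.247 and 0.176 times in WT. Whether the makeup of the macrophages differed was not tested.

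**Figure D4:**
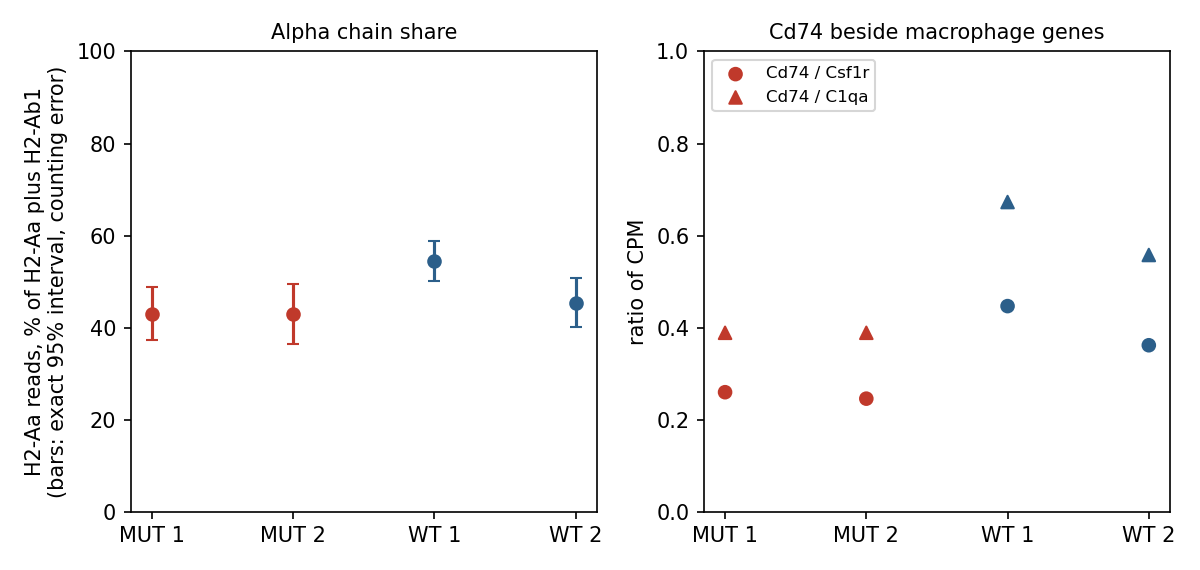
Left, share of H2-Aa reads among the reads of H2-Aa and H2-Ab1 in each library (MUT red, WT blue), in percent with exact 95% intervals for counting error. Right, ratio of the CPM of Cd74 to that of the macrophage genes Csf1r (circles) and C1qa (triangles). Both MUT libraries lie below both WT libraries, at 0.26 and 0.246 against 0.447 and 0.362 for Csf1r. These ratios restate the Cd74 difference that chose the pathway.

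No gene listed for dendritic cells or B cells was called, and some defining genes of both were at or near 0. Of 12 dendritic cell genes, 4 were tested, and none was called; the log2 fold change of all 4 was below 0, with a median of -0.082. The summed level of the 12 was 24.21 and 23.53 CPM in MUT and 25.33 and 24.81 CPM in WT. The most abundant of them was Zbtb46, at 8.898 and 9.309 CPM in MUT and 8.914 and 10.7 CPM in WT, while Clec9a, which defines cross-presenting dendritic cells, was at 0 in both MUT libraries and at 0.0445 and 0.04021 CPM in WT. Clec10a, of dendritic cells and macrophages, was at 1.845 and 1.49 CPM in MUT and 2.121 and 1.749 CPM in WT. Of 8 B cell genes, 3 were tested with none called and all 3 below 0, and the summed level was 19.78 and 20.33 CPM in MUT and 22.4 and 20.93 CPM in WT. That sum came mostly from Pax5 (11.56 and 11.8 CPM in MUT, 13.53 and 13.07 CPM in WT) and Fcrla (5.556 and 6.035 CPM in MUT, 6.319 and 5.549 CPM in WT), whereas the antigen receptor gene Cd79a was at 0.08201 and 0.1955 CPM in MUT and 0.0445 and 0 CPM in WT.

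No marker of T cells, or of leukocytes in general, was called. Of 12 T and NK cell genes, 4 were tested and none was called, with a summed level of 16.28 and 13.95 CPM in MUT and 15.28 and 15.5 CPM in WT. That sum came mostly from Cd3d, so it says little of the other genes. Cd3g had 2 and 1 reads in MUT and 10 and 8 reads in WT, close to the floor of 3 reads, while Cd8a and Cd8b1 overlapped between genotypes. Cd3e, of the T cell receptor complex, was at 0.123 and 0.1222 CPM in MUT and 0.2522 and 0.2212 CPM in WT, and Cd2 at 1.353 and 1.832 CPM in MUT and 2.151 and 2.171 CPM in WT (a log2 difference of -0.36, SE 0.166, limma adjusted p = 0.327; -0.19 without MUT 1). Cd3d, the most abundant of that list, was at 11.07 and 8.82 CPM in MUT and 9.315 and 9.289 CPM in WT, and Cd4 at 1.087 and 1.148 CPM in MUT and 1.602 and 1.045 CPM in WT. The pan-leukocyte gene Ptprc was at 1.251 and 1.588 CPM in MUT and 1.29 and 0.8042 CPM in WT, and of the 4 tested leukocyte genes none was called; Coro1a was at 1.825 and 1.466 CPM in MUT and 2.121 and 1.729 CPM in WT, and Lcp1 at 4.633 and 5.082 CPM in MUT and 4.287 and 4.705 CPM in WT.

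In the other tissue lists a single gene was called, Cyp17a1 of the Leydig cells. Tie1 of the endothelium was at 2.378 and 2.126 CPM in MUT and 3.471 and 2.614 CPM in WT (a log2 difference of -0.36, SE 0.157, limma adjusted p = 0.301; -0.18 without WT 1), and Vwf at 23.86 and 21.31 CPM in MUT and 25.16 and 24.63 CPM in WT, with none of 8 endothelial genes called. In the blood list Alas2 was at 19.95 and 21.77 CPM in MUT and 24.13 and 20.29 CPM in WT. The adult globin genes Hba-a1, Hba-a2, Hbb-b1, Hbb-b2, Hbb-bs and Hbb-bt were listed at 0 in all libraries. Whether the counting left out their reads was not tested, so these values are not read as absence of blood RNA. The 6 epididymis genes summed to 0.205 and 0.171 CPM in MUT and 0.267 and 0.2212 CPM in WT. Of 6 Leydig cell genes the called one, Cyp17a1, was higher in MUT (log2 fold change 0.28, SE 0.0604, limma adjusted p = 0.0361; not called without MUT 1, MUT 2 or WT 2, at 0.30, 0.25 and 0.22), and none of 6 Sertoli cell and 10 germ cell genes was called. Cyp11a1 of the Leydig list was at 193.4 and 225.1 CPM in MUT and 165.1 and 174.4 CPM in WT. The values of Cyp11a1 lay higher in MUT (0.30, SE 0.0729, adjusted p = 0.0624), and it was called without MUT 1 or WT 2, at 0.41 and 0.34, but was at 0.19 without MUT 2. Over the 6 Leydig cell genes, 5 were above 0 and 1 below, with a median log2 fold change of 0.284; the one below was Insl3, a hormone gene of Leydig cells, at 30.22 and 20.21 CPM in MUT and 23.26 and 39.17 CPM in WT. Of the Sertoli list, Cldn11 was at 59.41 and 59.18 CPM in MUT and 49.36 and 53.72 CPM in WT (0.20, SE 0.0749, adjusted p = 0.213), Rhox5 at 12.83 and 11.87 CPM in MUT and 11.44 and 8.364 CPM in WT (a log2 difference of 0.32, SE 0.124, limma adjusted p = 0.229; 0.54 and called without WT 1, 0.11 without WT 2), and Amhr2 at 175.8 and 174.5 CPM in MUT and 186.9 and 182.9 CPM in WT. The genes of Sertoli cells lay in both directions. Of the germ cell list, Prm2 was at 4764 and 4524 CPM in MUT and 5479 and 4738 CPM in WT, and the spermatogonial gene Zbtb16 at 6.868 and 7.476 CPM in MUT and 5.384 and 5.268 CPM in WT (0.40, SE 0.117, adjusted p = 0.117). The part of these cell types in the members' values was not tested.

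Leaving out members and predicted or clone names, the genes most like the mean profile of the 4 tested members came from other settings. Likeness was the Euclidean distance between centred log2(CPM + 0.5) values over the 4 libraries. The nearest was Cpn1, a carboxypeptidase subunit gene, at a distance of 0.0299. Cpn1 passed the filter only through the WT libraries, where it was higher, so its place depends on that filter. Next came Lin37, of a cell cycle repressor complex, at 0.034, and the prostaglandin D synthase gene Ptgds at 0.0474. The nuclear noncoding RNA Malat1 followed at 0.0616 and Clip2, of a microtubule-binding protein, at 0.0692. Ptgds was at 43.83 and 42.61 CPM in MUT and 59.92 and 53.9 CPM in WT, and Malat1 at 305.9 and 316 CPM in MUT and 452.3 and 408 CPM in WT. Ptgds and Malat1 were called lower, at log2 differences of -0.39 (SE 0.0778, limma adjusted p = 0.0224) and -0.47 (SE 0.0643, limma adjusted p = 0.000898). The other 3 were not called, at -0.43 (Cpn1), -0.39 (Lin37) and -0.40 (Clip2). The members' mean profile is lower in MUT, so the direction of these genes was fixed by their choice. Nothing is read from their calls. The call of Ptgds was lost without MUT 2, at -0.37, and without WT 1, at -0.32, while Lin37 was called without WT 2, at -0.47. Pearson correlation, another measure, leaves the size of the differences out. By it, 119 tested genes outside the members, with 15364 tested in all, were above 0.99 with the members' mean profile. Clip2 was at 0.988. A profile over 4 libraries holds few values, so nothing is read from such likeness.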

How the data were processed

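Polyadenylated RNA of testis was sequenced in 4 libraries, 2 MUT and 2 WT, with a stranded TruSeq kit, per the labels' protocols. The authors deposited CPM for 24420 symbols; the build mm10 and the tools edgeR 3.8.6, HTSeq 0.6.0 and TopHat2 2.0.10 are named, without roles, per the submitters' processing notes. In every library 100% of the values were whole multiples, within 0.001, of the smallest value, which recovered the reads; a floor of 3 reads was 0.0445 to 0.0733 CPM.

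Symbols with at least 1 CPM in at least 2 libraries were tested: log2(CPM + 0.5), limma 3.58.1 (R 4.3.3) with its trend option, two-sided, Benjamini-Hochberg adjustment over 15364 genes, called at an adjusted p under 0.05. Folds are MUT minus WT and understate changes of low genes. An exact permutation test of 2 against 2 libraries cannot go below 0.333. On the recovered reads, edgeR 4.0.16 called 116 genes and DESeq2 1.42.0 called 157. The members and lists were chosen with earlier results of these data known. Named were all members, the class II region and transcription genes, and from each other list the 2 smallest p, the most abundant and any called gene, plus the 5 genes nearest in profile. The choice of these 5 left out predicted or clone names. Others named were chosen after their values were seen. Positions and exon lengths are from GENCODE vM21 (GRCm38).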

Additional observations from a re-analysis of the deposited data

How the results depend on the processing

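The log2 fold changes of Cd74, H2-Aa, H2-Ab1 and H2-DMa stayed below 0 under all 17 alternatives run for single genes. The call of Cd74 was lost without the filter on low values (-0.59), after quantile normalization (-0.61), without the variance trend (-0.59) and after removal of the GC content and length trend (-0.53), so that 0 members were called lower in each of these. The call of Malat1 was lost without the filter and without the trend. Leaving out single libraries gave -0.72 to -0.45 for Cd74, with the call lost without WT 1, and -0.51 to -0.35 for H2-DMa, called without MUT 2. Between 0 (without WT 1) and 2 (without MUT 2) members were then called lower. Counts over all genes, 74 higher and 41 lower, were 7 and 4 without the filter, 35 and 18 after quantile normalization, 5 and 2 without the trend, 41 and 29 after the GC and length correction, 86 and 71 with DESeq2, 67 to 133 and 42 to 177 with a library left out (most without WT 1, 86 lower without MUT 2), 122 and 34 (78.2% higher, against 64.3%) with plain library totals, and 113 and 37 (75.3% higher) with totals that leave out the 100 most abundant genes. With plain library totals the median log2 fold change over all tested genes was 0.0258, against -0.00159 with the deposited scaling, and Cd74 was at -0.56. The causes of the other shifts in these counts were not tested.

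The replicate block gave 57 higher and 31 lower genes and the same call of Cd74; the call of Cyp17a1 was lost (limma adjusted p = 0.0514). Same-numbered libraries deviated with a correlation of -0.134. With 2 libraries per genotype this cannot show whether the numbers mark a batch. A crossed pairing was run because the correlation was negative, and gave 131 and 104 calls and 2 members. The data picked that pairing, so nothing is read from its higher counts. The crossed pairing, the GC and length correction and the sum without Aif1 were added after the data were seen. Depth limits H2-Eb1, H2-DMb1 and Ciita, with 4 to 62 reads a library.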
